A study of Homo sapiens with 12 samples.

Results

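Laminins and nidogens of WI-38 cells were followed as 9 genes, of 25702 in the count table and 9490 tested. The members are the genes of 4 laminin α chains (LAMA1, LAMA2, LAMA4 and LAMA5), 2 β chains (LAMB1 and LAMB2), the γ chain LAMC1 and both nidogens (NID1 and NID2). They were chosen by name, and all 9 passed the filter on low counts. WI-38 is an established line of human fetal lung fibroblasts, so every value comes from 1 line. RNA was sequenced in 4 conditions of 3 flasks each: D1 and D20 were harvested 1 and 20 days after the start without TGF-β, and D1+ TGF-β and D20+ TGF-β were given TGF-β at 2 ng/mL. All 4 conditions shared the same line and serum-containing medium. All D20+ TGF-β flasks were grown from a single treated flask and all D20 flasks from a single untreated one, so their spread is between cultures of the same cells. In every result below that uses flasks of day 20, treatment therefore cannot be told apart from the flask of origin. Rises and falls with TGF-β at D20 are differences between these sets of flasks. The labels give passages 2 to 3 for the D1 conditions and 5 to 6 for the D20 conditions, so day and passage cannot be told apart.

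Laminins are trimers of an α, a β and a γ chain that assemble inside the cell. They are part of the basement membrane, the thin sheet of matrix beneath epithelia and endothelia and around muscle cells. The α chain carries the domains that integrins and dystroglycan bind, and the chains are held together along a coiled coil. Nidogens bind the γ chain of laminin and collagen IV and join the networks of both. In the lung the alveolar wall holds the fused basement membranes of epithelium and capillary, and fibroblasts are among the cells that make their components. TGF-β drives fibroblasts towards myofibroblasts, contractile cells that are known for interstitial collagens.

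Library totals ranged from 8674488 to 18286197 counts. All 10 fibroblast markers passed the filter, and the defining epithelial and endothelial genes EPCAM and PECAM1 had at most 0.522 and 0.303 cpm (counts scaled to library size with TMM factors). TEK, a receptor best known from endothelium, was the only endothelial marker of 8 past the filter, with 218 to 245 cpm at D20 and 74.9 to 148 cpm at D20+ TGF-β. The 8 endothelial markers summed to 45.8 to 79.7 cpm in the D1 flasks, 35.0 to 41.3 in the D1+ TGF-β flasks, 220 to 247 in the D20 flasks and 77.1 to 150.2 in the D20+ TGF-β flasks. At D20 TEK made up 218 to 245 cpm of this sum, and CDH5, another of the 8 markers, had 0 counts in every flask. This sum moved with LAMA4 and LAMA5 at D20, and its part in those results was not tested. At D1, TGF-β raised 6 of 8 myofibroblast markers. At D20 it raised POSTN alone and lowered 2, and ACTA2, which encodes αSMA, had 272 to 292 cpm at D20 and 280.5 to 351 cpm at D20+ TGF-β. Replicate 2 of D1 and replicate 3 of D20+ TGF-β were far from the remaining flasks of their condition, with a chi-square per degree of freedom of 33.8 to 36.2 and 19.1 to 26.5 against 12.9 and 5.28 for the remaining pair. Each result of the 9 members and the 14 partner genes named below was recomputed without either flask and without both, and where a call given below changes, the value without them is given. Since the RNA is from whole flasks, fewer cells making a transcript and less transcript per cell cannot be told apart.

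By the GENCODE annotation of GRCh37 (hg19, the build of the deposited counts), the α chain genes lie at chr18:6941741-7117796 on the minus strand (LAMA1, gene ID 284217), chr6:129204283-129837711 on the plus strand (LAMA2, 3908), chr6:112429134-112576141 on the minus strand (LAMA4, 3910) and chr20:60883011-60942368 on the minus strand (LAMA5, 3911). LAMB1 (3912) lies at chr7:107564244-107643658 and LAMB2 (3913) at chr3:49158547-49170551, both on the minus strand. LAMC1 (3915) lies at chr1:182992555-183114727 on the plus strand, NID1 (4811) at chr1:236139130-236228409 and NID2 (22795) at chr14:52471527-52535777 on the minus strand. LAMB2 is the member with no overlapping annotated gene. Protein-coding genes overlap LAMA5 (ADRM1), LAMB1 (DLD) and NID2 (RTRAF) on the opposite strand, and antisense RNAs overlap LAMA4, LAMA5 and LAMC1. Use of strand in counting is not given in the sources used here, so reads of such neighbours could be included in these counts.

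LAMA5, LAMC1 and NID2 were all lower at D20+ TGF-β than at D20, and their promoters are printed because the 250 bases before the start lie wholly outside the annotated gene. The sequences are from RefSeq (GRCh38.p14), matched to GRCh37 by exact search. They are given 5′ to 3′ on the gene's strand. Capitals mark matches, on either strand and overlapping where they run together, to the GC box (GGGCGG), the SMAD box (CAGAC) and the CACCTG E-box.
NID2, chr14:52535778-52536027, minus strand: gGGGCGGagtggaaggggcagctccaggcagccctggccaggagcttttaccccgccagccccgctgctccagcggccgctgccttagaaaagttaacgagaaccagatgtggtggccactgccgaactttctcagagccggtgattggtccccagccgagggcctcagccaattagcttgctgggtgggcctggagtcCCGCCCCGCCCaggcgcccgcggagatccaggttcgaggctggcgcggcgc
LAMC1, chr1:182992305-182992554, plus strand: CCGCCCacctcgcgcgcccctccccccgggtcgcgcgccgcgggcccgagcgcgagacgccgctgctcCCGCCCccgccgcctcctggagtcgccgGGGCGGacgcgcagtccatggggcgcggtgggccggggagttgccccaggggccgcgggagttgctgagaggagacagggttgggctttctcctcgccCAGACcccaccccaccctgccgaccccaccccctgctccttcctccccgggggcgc
LAMA5, chr20:60942369-60942618, minus strand: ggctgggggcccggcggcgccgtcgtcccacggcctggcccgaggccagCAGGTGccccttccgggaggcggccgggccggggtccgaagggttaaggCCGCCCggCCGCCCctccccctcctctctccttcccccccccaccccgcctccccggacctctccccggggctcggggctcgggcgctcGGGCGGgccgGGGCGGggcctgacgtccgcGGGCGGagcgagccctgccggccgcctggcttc
These stretches held 68.0%, 79.6% and 82.8% G and C, against a median of 58.0% over 27305 promoters. A promoter was matched for 8 members. Counting 50 bases past the start as well, 6 of the 8 held a GC box, which 44.6% of all promoters hold, and 4 of the 8 held a SMAD box, which 45.0% hold. The longer SMAD element GTCTAGAC (0.201% of promoters), the AP-1 site TGACTCA (4.92%) and the TATAAA element (12.0%) were found in 0 of the 8. LAMA2 held the TEAD site CATTCC (14.0%) and LAMA5 the E-box CACCTG (20.6%). LAMA4 and LAMA2 held no GC box. A match describes these letters and not binding.

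In RPKM (cpm per kb of annotated exon), LAMC1 was the most abundant member in every condition, with means of 101 and 96.8 RPKM for D1 and D1+ TGF-β and 145 and 105 RPKM for D20 and D20+ TGF-β. LAMA2 was the lowest in every condition, from 0.580 to 2.07 RPKM. With the length of the longest transcript both orders changed in 1 condition: LAMB1 (192 RPKM) exceeded LAMC1 (154) at D20, and LAMA5 (5.04) was below LAMA2 (5.49) at D20+ TGF-β. Summed over the 9 members, the level was 2398 to 3172 cpm in D1 flasks, 2264 to 2377 in D1+ TGF-β flasks, 4124 to 4499 in D20 flasks and 2016 to 2699 in D20+ TGF-β flasks. The D20 flasks thus held more laminin and nidogen RNA than the flasks of any other condition. TGF-β lowered 5 members at D20, raised LAMA1 and gave no call for LAMA2, LAMB2 and NID1, as the edgeR quasi-likelihood test called them at an adjusted p under 0.01. At D1 it lowered LAMA5 and NID2 only.

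**Figure D1:**
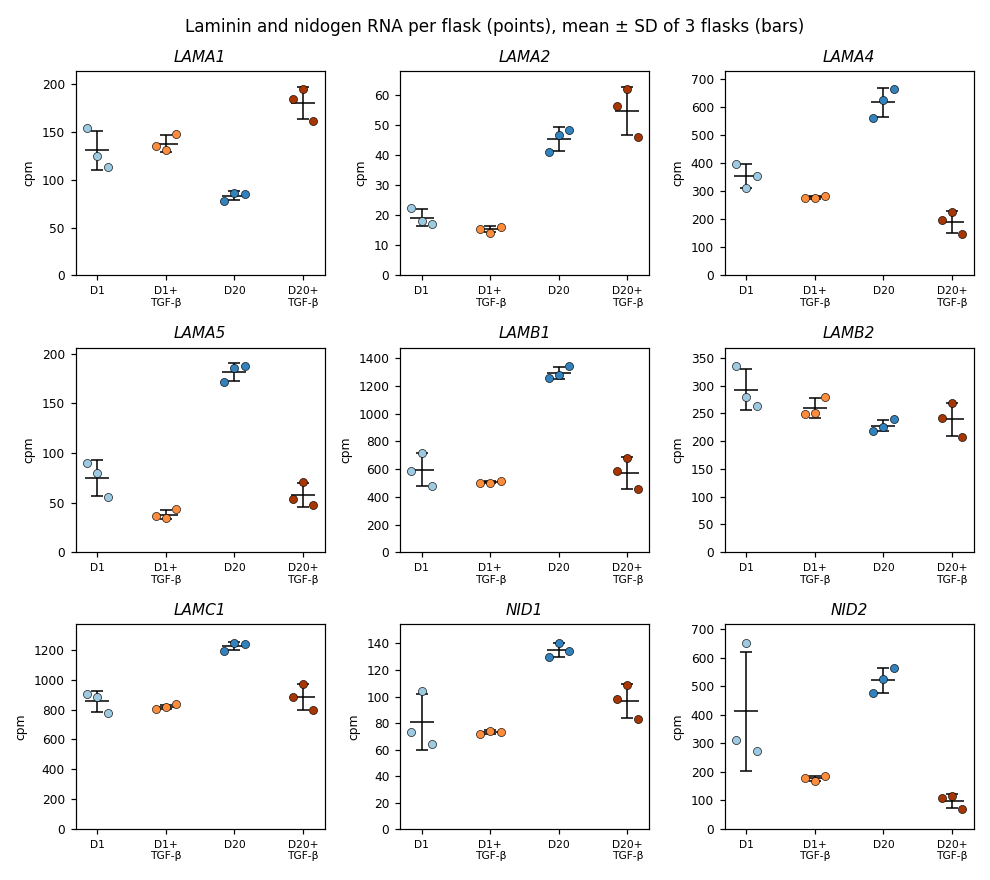
Expression of the 9 laminin and nidogen genes in cpm (linear axis from 0) in each of the 12 flasks, by condition, with the mean and SD of the 3 flasks as a horizontal mark and bar. For LAMA4, LAMA5, LAMB1, LAMC1 and NID1 all 3 D20 flasks lie above all flasks of the other conditions, and for LAMA1 they lie below them all.

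The comparison D20+ TGF-β vs D20 sets long exposure to TGF-β against equal time in culture, and treatment and flask of origin cannot be told apart in it. In it 27.5% of all tested genes were called, 12.8% higher and 14.7% lower. Of the members, 1 was higher and 5 were lower, and their median log2 fold change was −0.48 against 0.01 over all genes. The flasks of both conditions did not overlap for 7 of the 9 members, as for 58.3% of all genes. The comparison D1+ TGF-β vs D1 asks for the early response. There 13.4% of all genes were called, 6.89% higher and 6.5% lower, and of the 9 members 0 were higher and 2 lower, with a median over the members of −0.23 against −0.02. The flasks did not overlap for 4 members, as for 36.4% of all genes.

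**Figure D2:**
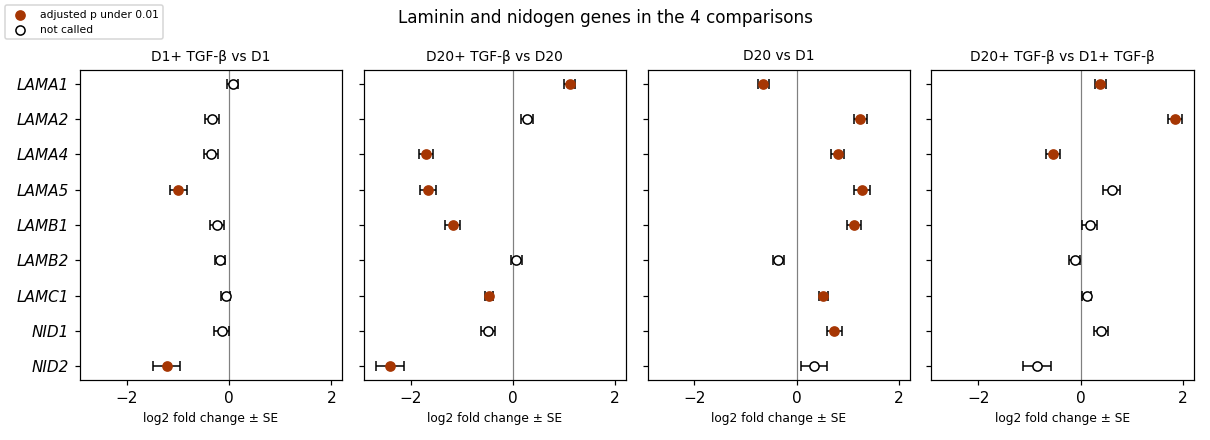
Log2 fold change with its standard error (SE) of the 9 genes in the 4 comparisons, from the edgeR fit over 12 libraries, with filled points at an adjusted p under 0.01 and open points above it. In D20+ TGF-β vs D20, LAMA1 lies to the right at 1.11 and NID2 farthest to the left at −2.41.

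Among the α chains, LAMA4, the chain of vessel, muscle and adipose basement membranes, had 397, 311 and 354 cpm in the D1 flasks and 275, 276 and 283 cpm in the D1+ TGF-β flasks. It had 562, 626 and 663 cpm in the D20 flasks and 197, 227 and 148 cpm in the D20+ TGF-β flasks. The conditions did not overlap at either day, and the gap was wide at D20 and narrow at D1. LAMA4 fell at D20 with a log2 fold change of −1.69 ± 0.13 (SE, adjusted p = 5.66e-07, edgeR). At D1 the log2 fold change was −0.35 ± 0.13 and was not called (adjusted p = 0.0672), and without both outlying flasks it was −0.44 and was called (adjusted p = 2.34e-04).

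LAMA5, the broad chain of mature epithelial and endothelial basement membranes, had 90.0, 79.6 and 55.2 cpm at D1, and 36.4, 34.3 and 43.2 cpm at D1+ TGF-β. At D20 it had 171, 185 and 187 cpm, and at D20+ TGF-β 54.0, 71.0 and 47.7 cpm. Every treated flask lay below every untreated flask of its day. Of the 4 member α chains, LAMA5 was called lower with TGF-β at both days and LAMA4 at D20. The log2 fold change was −0.99 ± 0.17 at D1 (adjusted p = 9.26e-04, edgeR) and −1.66 ± 0.16 at D20 (adjusted p = 4.50e-06).

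LAMA1, the chain of embryonic basement membranes that is restricted in adult tissue, went the other way. It had 154, 125 and 114 cpm at D1 and 135, 131 and 148 cpm at D1+ TGF-β, which overlapped. It had 78.1, 86.6 and 85.5 cpm at D20 and 184, 195 and 162 cpm at D20+ TGF-β. The treated D20 flasks were the highest of all and the untreated D20 flasks the lowest. The log2 fold change was 1.11 ± 0.11 at D20 (adjusted p = 3.47e-06, edgeR) and 0.08 ± 0.11 at D1 (adjusted p = 0.644).

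LAMA2 encodes the chain of skeletal muscle and peripheral nerve basement membranes. The D1 flasks had 22.4, 18.1 and 17.0 cpm and the D1+ TGF-β flasks 15.6, 14.2 and 16.2 cpm. The D20 flasks had 40.9, 46.8 and 48.2 cpm and the D20+ TGF-β flasks 56.2, 61.8 and 46.0 cpm, which overlapped. LAMA2 was separated by day. With all flasks it was not called for TGF-β, with log2 fold changes of −0.33 ± 0.14 at D1 (adjusted p = 0.0925, edgeR) and 0.27 ± 0.12 at D20 (adjusted p = 0.0818). Without both outlying flasks, of which D20+ TGF-β replicate 3 was the treated flask that overlapped, the D20 value was 0.37 and was called (adjusted p = 0.00325).

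LAMB1, the β chain paired with most embryonic and many adult α chains, had 587, 717 and 480 cpm at D1 and 501, 502 and 514 cpm at D1+ TGF-β. It had 1255, 1283 and 1343 cpm at D20 and 586, 677 and 453 cpm at D20+ TGF-β. The D20 flasks stood alone, and the other 3 conditions overlapped. The log2 fold change with TGF-β was −1.18 ± 0.14 at D20 (adjusted p = 2.80e-05, edgeR) and −0.23 ± 0.14 at D1 (adjusted p = 0.254). LAMB2, the β chain of the glomerular and neuromuscular basement membranes, had 335, 280 and 263 cpm in the D1 flasks, 248, 250.5 and 279 cpm with TGF-β, 219, 225 and 239 cpm in the D20 flasks and 241, 268 and 208 cpm with TGF-β. Treated and untreated flasks overlapped at both days. Its log2 fold changes with TGF-β were −0.17 ± 0.10 (adjusted p = 0.243) and 0.07 ± 0.10 (adjusted p = 0.623), at D1 and D20.

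LAMC1, the γ chain of most laminins and the nidogen-binding chain, had 902, 886 and 776 cpm at D1 and 805, 814 and 834 cpm at D1+ TGF-β. It had 1193, 1245 and 1237 cpm at D20 and 887, 974 and 800 cpm at D20+ TGF-β. As for LAMB1, the D20 flasks were the highest and the other conditions overlapped. The log2 fold change with TGF-β was −0.47 ± 0.08 at D20 (adjusted p = 6.03e-04, edgeR) and −0.06 ± 0.08 at D1 (adjusted p = 0.622). Among the 5 members called lower at D20 it had the smallest change.

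NID2, the second nidogen, had the largest TGF-β response of the 9 genes at D20. Its D1 flasks had 310, 651 and 275 cpm, or 179, 168 and 185 cpm with TGF-β, and its D20 flasks 475, 527 and 563 cpm, or 109.9, 116 and 68.6 cpm with TGF-β. All treated flasks lay below all untreated flasks of either day, and the second D1 flask was over 2 times as high as the other two. The log2 fold change was −2.41 ± 0.28 at D20 (adjusted p = 1.65e-05, edgeR) and −1.22 ± 0.27 at D1 (adjusted p = 0.00475). Without D1 replicate 2 the D1 value was −0.71 and stayed called (adjusted p = 0.00375). Without D1+ TGF-β replicate 1, 2 or 3, each left out alone, it was −1.25 to −1.16 and was not called (adjusted p = 0.0175 to 0.0293).

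NID1, which like NID2 links laminin to collagen IV, had 73.4, 105 and 64.2 cpm at D1 and 71.8, 74.3 and 73.5 cpm at D1+ TGF-β, with overlap. It had 129.9, 140.3 and 134 cpm at D20 and 98.3, 109 and 83.0 cpm at D20+ TGF-β, which did not overlap. The log2 fold change of −0.48 ± 0.14 at D20 was not called (adjusted p = 0.0145, edgeR), nor was that of −0.14 ± 0.14 at D1 (adjusted p = 0.502). The D20 value was called without D1 replicate 2 or without D1 replicate 3 (log2 fold change −0.47 in both, adjusted p = 4.999e-04 and 0.00682).

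Whether the response to TGF-β at D20 differed from that at D1 was tested as an interaction in the same edgeR fit, and 10.4% of all genes were called, 4.51% higher and 5.87% lower. It was called for 3 members. For LAMA1 the D20 response was higher than the D1 response by 1.04 ± 0.15 on the log2 scale (adjusted p = 4.31e-04), and for LAMA4 the difference was −1.34 ± 0.18 (adjusted p = 2.97e-04). For LAMB1 it was −0.94 ± 0.20 (adjusted p = 0.00497). That call was kept without D1 replicate 2 (−1.10, adjusted p = 4.91e-04), without D20+ TGF-β replicate 3 (−0.79, adjusted p = 0.005105) and without both (−0.96, adjusted p = 3.13e-06). It was lost, with −0.96 to −0.91 and an adjusted p of 0.0113 to 0.0163, when any of these was left out alone: D1 replicate 1, D1+ TGF-β replicates 1, 2 and 3, D20 replicates 1, 2 and 3, or D20+ TGF-β replicate 1. For NID2 the difference of −1.19 ± 0.37 was not called (adjusted p = 0.0375), and without D1 replicate 2 it was −1.68 and called (adjusted p = 1.019e-04). For LAMA5 it was −0.67 ± 0.23 and not called (adjusted p = 0.0576). LAMA2 and NID1 gained a call without 1 library, the former without D20+ TGF-β replicate 3 (0.72, adjusted p = 0.00585) and the latter without D1 replicate 2 (−0.57, adjusted p = 0.00509). Without both D1 replicate 2 and D20+ TGF-β replicate 3, 7 members were called, LAMC1 among them (−0.36, adjusted p = 0.00789). In that fit 2247 of all genes were called, against 985 with all flasks.

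Without TGF-β, most of the members were higher at D20 than at D1 (D20 vs D1). Day, passage and regrowth from a single flask cannot be told apart in this comparison. Of all genes 36.4% were called, 18.9% higher and 17.6% lower, and of the members 6 were higher and 1 lower, with a median log2 fold change of 0.74 against 0.01. The flasks did not overlap for 8 of the 9 members, as for 55.6% of all genes. The α chains LAMA5 (1.28 ± 0.16, adjusted p = 2.43e-05, edgeR), LAMA2 (1.25 ± 0.12, adjusted p = 3.09e-06) and LAMA4 (0.80 ± 0.13, adjusted p = 1.97e-04) rose, as did LAMB1 (1.12 ± 0.14, adjusted p = 2.66e-05), LAMC1 (0.52 ± 0.08, adjusted p = 1.82e-04) and NID1 (0.74 ± 0.14, adjusted p = 7.37e-04). LAMA1 fell (−0.65 ± 0.11, adjusted p = 2.08e-04). This comparison and D20+ TGF-β vs D20 share the 3 D20 flasks, so their values for a member are not independent.

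LAMB2 had −0.36 ± 0.10 in D20 vs D1, with flasks that did not overlap and an adjusted p of 0.0107, and was not called. It was called, with −0.43 to −0.38 and an adjusted p of 0.00326 to 0.00993, without D1 replicate 2 or 3, D1+ TGF-β replicate 2 or 3, or D20+ TGF-β replicate 2 or 3, each left out alone. NID2 was not called either (0.34 ± 0.26, adjusted p = 0.296), and its D1 flasks overlapped the D20 flasks through D1 replicate 2. Without that flask NID2 had a log2 fold change of 0.83 and was called (adjusted p = 6.66e-04).

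Between the conditions given TGF-β (D20+ TGF-β against D1+ TGF-β) 34.8% of all genes were called, 17.2% higher and 17.7% lower, and of the members LAMA2 and LAMA1 were higher and LAMA4 lower. The flasks did not overlap for 6 members, as for 63.2% of all genes, and the median was 0.18 against 0.01. LAMA2 had 1.85 ± 0.13 (adjusted p = 6.51e-07, edgeR). LAMA1 had 0.39 ± 0.11 (adjusted p = 0.00796) and was not called without D1+ TGF-β replicate 1, 2 or 3, D20 replicate 2 or 3, or D20+ TGF-β replicate 1 or 2 (0.33 to 0.43, adjusted p = 0.0116 to 0.0471). LAMA4 had −0.54 ± 0.13 (adjusted p = 0.00393) and was not called without D1+ TGF-β replicate 1 or 3 or D20+ TGF-β replicate 1 (−0.56 to −0.54, adjusted p = 0.0106 to 0.0123). LAMA5 with 0.61 ± 0.17 was just outside the threshold (adjusted p = 0.0101) and was called without D1 replicate 1, 2 or 3 or D20+ TGF-β replicate 3 (0.61 to 0.71, adjusted p = 0.00261 to 0.00877). NID2 with −0.85 ± 0.27 (adjusted p = 0.0180) and NID1 with 0.40 ± 0.14 (adjusted p = 0.0330) were called without D1 replicate 2 (−0.85 and 0.40, adjusted p = 2.87e-04 and 0.00158). LAMB1 had 0.18 and was not called (adjusted p = 0.319), and without both outlying flasks it had 0.32 and was called (adjusted p = 0.0021).

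Because a trimer takes 1 chain of each class, shares within a class were computed from counts per kb of exon. The α chain total holds the 4 members and leaves out LAMA3, which had 1.76 RPKM at D20, within the spread of LAMA2 (1.71), and 0.103 to 0.285 RPKM in the other conditions. LAMA4 made up 67.6% ± 3.6 (SD, n = 3 flasks) of the RNA of these α chains in D1 flasks and 66.0% ± 1.4 in D1+ TGF-β flasks, and 72.3% ± 0.73 in D20 flasks and 47.5% ± 2.4 in D20+ TGF-β flasks. LAMA1 made up 18.8% ± 1.2, 24.8% ± 0.69, 7.40% ± 0.24 and 34.3% ± 2.5 in the same order. The D20+ TGF-β flasks had the lowest LAMA4 and the highest LAMA1 shares, and at D1 the LAMA4 shares with and without TGF-β overlapped. Averaged over both days, TGF-β moved the LAMA1 share by 16.4 points (two-sided exact permutation within day, p = 0.005, adjusted p = 0.01 over 4 shares). It moved the LAMA4 share by −13.2 points (exact permutation p = 0.035, adjusted p = 0.0467), which lost the threshold of 0.05 without D1 replicate 3 (−12.2, p = 0.07) or D1+ TGF-β replicate 3 (−12.8, p = 0.05). The smallest p these 400 arrangements can give is 0.005.

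**Figure D3:**
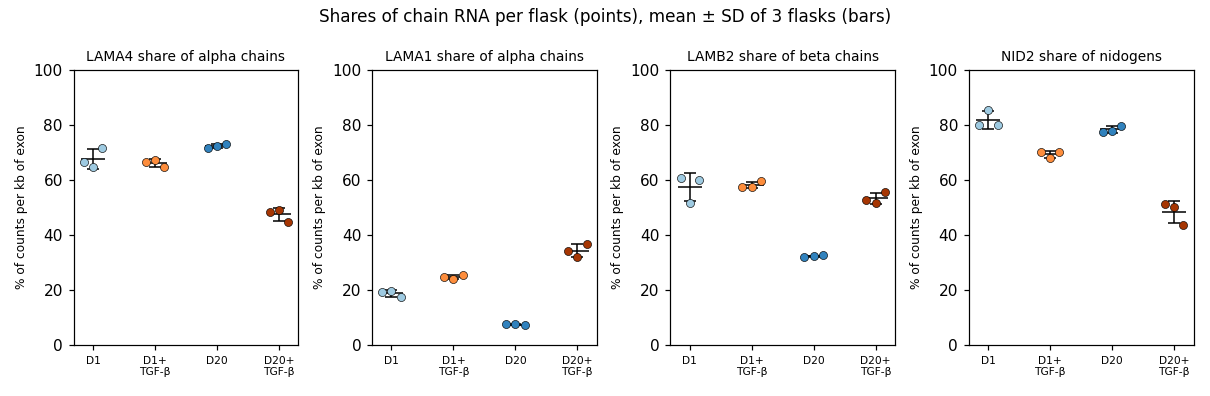
Shares of chain RNA in percent of counts per kb of exon (axis from 0 to 100), per flask and by condition, with the mean and SD of the 3 flasks. At D20+ TGF-β the LAMA1 share is 34.3% against 7.40% at D20, and the NID2 share 48.2% against 78.3%.

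LAMB2 made up 57.3% ± 5.1 of β chain RNA in D1 flasks and 58.1% ± 1.2 in D1+ TGF-β flasks, and 32.3% ± 0.23 in D20 flasks and 53.3% ± 1.9 in D20+ TGF-β flasks. The D20 flasks stood apart with the lowest shares. With TGF-β the D20 shares were all higher, at 51.7% to 55.4% against 32.1% to 32.5%. At D1 they overlapped, at 57.3% to 59.5% with TGF-β and 51.4% to 60.7% without. Averaged over both days, the TGF-β difference of 10.9 points did not pass 0.05 (exact permutation p = 0.05). This average passed without D1 replicate 1 (11.8 points, exact permutation p = 0.03) or D1 replicate 3 (11.5 points, exact permutation p = 0.035). The difference at D20 alone was not tested. The level of this share depends on the length used: the union of annotated exons of LAMB1 is 18592 bases and its longest transcript 6737 bases. With longest transcripts the LAMB2 shares were 37.1%, 37.7%, 17.2% and 33.3%. NID2 made up 81.7% ± 3.1 of nidogen RNA in D1 flasks and 69.3% ± 1.3 in D1+ TGF-β flasks. In D20 flasks it made up 78.3% ± 1.2 and in D20+ TGF-β flasks 48.2% ± 4.1. Averaged over both days, TGF-β moved the NID2 share by −21.2 points (exact permutation p = 0.005, adjusted p = 0.01).

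Of the laminin chains outside the members, LAMA3, LAMB3, LAMB4 and LAMC3 did not pass the filter of 10 cpm in 6 libraries. LAMA3 and LAMB3 encode chains of epithelial anchoring laminin. LAMA3 still had 24.2 to 27.6 cpm at D20, against 0.752 to 3.15 cpm at D20+ TGF-β, 2.17 to 6.59 at D1 and 1.34 to 1.63 at D1+ TGF-β. In an edgeR fit of 20434 genes with no filter, which was added after its values were seen, LAMA3 had −3.47 ± 0.27 in D20+ TGF-β vs D20 (adjusted p = 1.47e-10), −1.55 ± 0.35 in D1+ TGF-β vs D1 (adjusted p = 0.00269) and 2.50 ± 0.25 in D20 vs D1 (adjusted p = 7.55e-09). LAMB3 was at 13.5 to 15.9 cpm at D1 and 5.97 to 7.24 cpm at D20 and fell in D20 vs D1 (−1.17 ± 0.14, adjusted p = 2.58e-07), and had 0.00 ± 0.15 for TGF-β at D20 (adjusted p = 1). LAMB4 was at 1.64 to 2.35 cpm at D20 and 0.0562 to 0.376 at D20+ TGF-β (−3.35 ± 0.50, adjusted p = 8.83e-06). LAMC3 was at most 0.447 cpm in any flask and was not called for TGF-β at either day. EPCAM was near 0 throughout. KRT19, the epithelial marker of 8 that passed the filter, had 8.75 to 26.3 cpm at D1 and 11.4 to 13.7 at D1+ TGF-β. It had 9.44 to 13.2 cpm at D20 and 4.72 to 13.6 at D20+ TGF-β, so treated and untreated flasks overlapped at both days. Any part of epithelial cells in the LAMA3 values was not tested.

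Of 10 listed laminin receptors 9 were tested, and 1 was higher and 0 lower with TGF-β at D1 (ITGB1, the shared integrin β subunit, named outside the rule after its values were seen, 0.66). Of all genes 13.4% and 27.5% were called with TGF-β at D1 and D20. The shares were 36.4% in D20 vs D1 and 34.8% over time with TGF-β. Of the receptors, 1 was higher and 1 lower with TGF-β at D20, and 0 and 4 in D20 vs D1. Over time with TGF-β the counts were 0 and 3 (ITGA3, ITGA7 and ITGB1). That call of ITGA7 was lost without any D1+ TGF-β replicate or D20+ TGF-β replicate 1 or 2, each left out alone (−0.69 to −0.54, adjusted p = 0.0115 to 0.0282). ITGA7, an integrin α subunit of muscle that binds laminin, had 4.03 to 4.86 cpm at D20 and 9.49 to 13.4 cpm at D20+ TGF-β and rose (1.25 ± 0.18, adjusted p = 1.09e-04, edgeR). It fell in D20 vs D1 (−1.76 ± 0.17, adjusted p = 2.72e-06). ITGA3, the subunit of the main epithelial receptor for LAMA5-containing laminins, fell with TGF-β at D20 (−0.64 ± 0.14, adjusted p = 0.00214) and in D20 vs D1 (−0.60 ± 0.13, adjusted p = 0.00216). The former call was lost without D20 replicate 1 or 2 or D20+ TGF-β replicate 1 or 2 (−0.61 to −0.50, adjusted p = 0.0110 to 0.0146), and the latter without D1 replicate 1 or D20 replicate 3 (−0.57 to −0.51, adjusted p = 0.0120 to 0.0126). ITGA6 and ITGA2, subunits of a laminin receptor and of a collagen and laminin receptor, had 0.48 ± 0.15 and 0.60 ± 0.22 for TGF-β at D20 and were not called (adjusted p = 0.0245 and 0.0402), and both fell in D20 vs D1 (−0.58 and −1.17). For TGF-β at D20, ITGA6 was called without D20+ TGF-β replicate 1 (0.63, adjusted p = 0.00508) and ITGA2 without D1 replicate 2 (0.62, adjusted p = 4.608e-05). Without D1 replicate 2, ITGA2 was also called with TGF-β at D1 (0.49, adjusted p = 0.00141, against 0.04 with all flasks) and over time with TGF-β (−0.61 in both fits, adjusted p = 4.296e-05 against 0.0311), and its value in D20 vs D1 was −0.73. Without D20+ TGF-β replicate 3, ITGA6 was called over time with TGF-β (−0.53, adjusted p = 2.95e-04, against −0.25 with all flasks). For ITGA6 the call in D20 vs D1 was lost without D1 replicate 1 or 3 or D20 replicate 1, 2 or 3 (−0.60 to −0.49, adjusted p = 0.0158 to 0.0348).

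Of 11 enzymes that build the laminin-binding glycan of dystroglycan, 8 were tested. With TGF-β 1 was higher and 1 lower at both days, where 13.4% (D1) and 27.5% (D20) of all genes were called. POMT1 and POMT2, the partners that start the sugar chain, went in opposite directions: POMT2 had 0.65 ± 0.10 at D1 (adjusted p = 5.32e-04, edgeR) and 0.39 ± 0.11 at D20 (adjusted p = 0.00921), and POMT1 −0.33 ± 0.08 at both days (adjusted p = 0.00836 and 0.00443). The call of POMT1 at D20 was lost without any of 6 single libraries (D1+ TGF-β replicate 1, D20 replicates 2 and 3 and each D20+ TGF-β replicate, adjusted p = 0.0109 to 0.0379). That of POMT2 at D20 was lost without any of 7 (D1+ TGF-β replicates 1 and 3, each D20 replicate and D20+ TGF-β replicates 1 and 2, adjusted p = 0.0102 to 0.0351). That of POMT1 at D1 was lost without any of 9 (D1 and D1+ TGF-β replicates 1 and 2, each D20 replicate and D20+ TGF-β replicates 1 and 2, adjusted p = 0.0124 to 0.0741).

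Of 20 other basement membrane components 14 were tested. With TGF-β 3 were higher and 4 lower at D1, where 13.4% of all genes were called. At D20 2 were higher and 5 lower with TGF-β, against 27.5% of all genes called. In D20 vs D1 6 were higher and 0 lower, against 36.4% of all genes called. Over time with TGF-β 4 were higher and 1 lower (SPARC, −0.60), against 34.8% of all genes called. COL4A6 was among the 4 higher (1.12 ± 0.31, adjusted p = 0.00819), with flasks that overlapped and a call lost in 9 of the 12 fits that left out 1 library (0.91 to 1.13, adjusted p = 0.0117 to 0.0436), those without D1 replicate 1, any D1+ TGF-β or D20 replicate, or D20+ TGF-β replicate 1 or 2. HMCN1, the large matrix protein hemicentin, had 6.86 to 10.6 cpm at D1 and 32.4 to 39.5 with TGF-β, and 6.86 to 9.50 cpm at D20 and 41.1 to 47.5 with TGF-β, so it rose at both days (2.03 ± 0.15 and 2.44 ± 0.15, adjusted p = 9.19e-07 and 8.61e-08, edgeR). COL15A1, a collagen bound to the outer face of basement membranes, had 6.62 to 8.67 cpm at D20 and 33.5 to 42.7 at D20+ TGF-β (2.33 ± 0.19, adjusted p = 6.81e-07), and 0.07 ± 0.20 at D1. COL18A1, the related collagen that holds the endostatin fragment, fell at both days (−0.56 ± 0.11 and −0.87 ± 0.11, adjusted p = 0.00165 and 2.66e-05). COL4A6, a collagen IV chain, had 24.3 to 41.5 cpm at D1 and 13.3 to 13.6 with TGF-β, and 121 to 136 cpm at D20 and 12.9 to 37.8 with TGF-β. It fell with TGF-β at both days (−1.35 ± 0.30 and −2.14 ± 0.27, adjusted p = 0.00565 and 3.97e-05) and rose in D20 vs D1 (1.92 ± 0.27, adjusted p = 5.69e-05). Its D1 call was lost without D1 replicate 1 or 2 or any D1+ TGF-β replicate (−1.35 to −1.17, adjusted p = 0.0139 to 0.0328), and that of COL18A1 without D1+ TGF-β replicate 1 or 2 (−0.52 in both, adjusted p = 0.0132 and 0.0159). The next genes were outside the rule and were named after their values were seen. COL4A5, another collagen IV chain, and NTN4, the laminin-binding netrin, were lower with TGF-β at D1 (−1.15 and −1.19) and D20 (−1.02 and −0.82). SPARC (1.09) and PXDN (0.53) were higher at D1, and FBLN1 was lower at D20 (−0.52). The more abundant collagen IV chains COL4A1 and COL4A2 were not called for TGF-β at either day with all flasks. In D1 replicates 1, 2 and 3 COL4A2 had 568, 913 and 425 cpm, against 933 to 1000 with TGF-β. At D20 it had 739 to 772 cpm, and 939, 996 and 623 with TGF-β. COL4A1 had 282, 653 and 230 cpm at D1 and 644 to 697 with TGF-β. At D20 it had 412 to 460 cpm, and 652, 647 and 363 with TGF-β. Apart from D1 replicate 2 and D20+ TGF-β replicate 3, treated flasks lay above untreated flasks for both genes at both days. Calls of these genes without the outlying flasks were not tested.

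**Figure D4:**
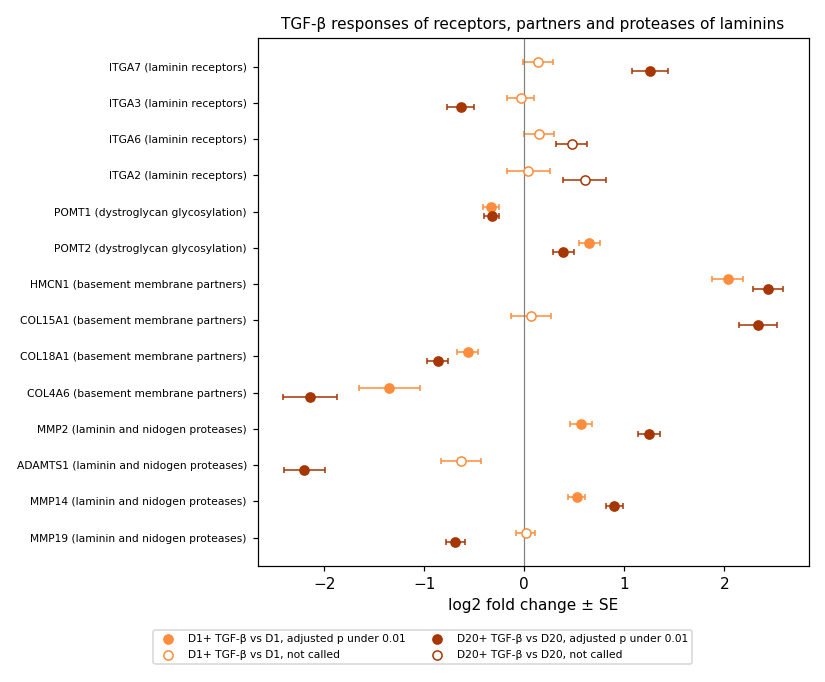
Log2 fold change with its SE for TGF-β at D1 (orange) and at D20 (brown) of 14 receptors, glycosylation enzymes, basement membrane partners and proteases, filled where the adjusted p was under 0.01. HMCN1 lies at 2.03 and 2.44, and ADAMTS1 at −0.63 (open) and −2.20.

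Of 9 proteases that cut laminins or nidogens 5 were tested. With TGF-β 2 were higher and 0 lower at D1, and 2 were higher and 2 lower at D20. The shares of all genes called were 13.4% at D1 and 27.5% at D20, 36.4% in D20 vs D1 and 34.8% over time with TGF-β. MMP2, the gelatinase that also cuts laminin, had 1266 to 1719 cpm at D1 and 2101 to 2184 with TGF-β, and 1486 to 1644 cpm at D20 and 3335 to 3991 with TGF-β. It rose at both days (0.57 ± 0.11 and 1.25 ± 0.11, adjusted p = 0.00212 and 1.70e-06, edgeR). MMP14, the membrane-bound activator of MMP2, rose as well (0.52 ± 0.09 and 0.90 ± 0.09, adjusted p = 7.24e-04 and 3.84e-06). ADAMTS1, a secreted protease that cuts nidogens, had 501 to 651 cpm at D20 and 90.5 to 154 at D20+ TGF-β and fell (−2.20 ± 0.20, adjusted p = 2.58e-06), with −0.63 ± 0.20 at D1, which was not called (adjusted p = 0.0337) and without both outlying flasks was −0.36 and called (adjusted p = 0.00488). MMP19, another matrix metalloproteinase, fell at D20 (−0.69 ± 0.09, adjusted p = 6.06e-05). In D20 vs D1 ADAMTS1 (1.45) and MMP19 (0.78) were higher and 0 were lower, and over time with TGF-β MMP2 (0.80) and MMP14 (0.40) were higher. The last call was lost without any D1+ TGF-β replicate or D20+ TGF-β replicate 2, each left out alone (0.36 to 0.39, adjusted p = 0.0101 to 0.0118).

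Across the 12 libraries the members ran in groups, by Pearson's r of log2 cpm. The points share conditions and libraries, so these values are descriptions. LAMB1 and LAMC1 had r = 0.984, LAMA5 had 0.946 with LAMB1 and 0.939 with LAMC1, and NID1 had 0.917 with LAMB1 and 0.919 with LAMC1. NID2 ran closest to LAMA4 (0.885). LAMA1 ran against LAMA4 (−0.872) and NID2 (−0.795), and LAMB2 had −0.483 to 0.373 with the other members. Among all tested genes, those most like each member were FBXO32, PBXIP1 and GPRC5B for LAMA2 (0.984 to 0.988), SUSD1, GSTM3 and ETFB for LAMA4 (0.976 to 0.984), TNFRSF1A, KAZN and ST6GALNAC6 for LAMA5 (0.985 to 0.992) and GZF1, FASN and PDP2 for LAMA1 (0.949 to 0.956). LAMB1 was most like SIDT2, LINC00205 and MLXIP (0.985 to 0.989), and LAMC1 like MLXIP, LAMB1 and SIDT2 (0.983 to 0.993). NID1 was most like PEAK1, SCARB2 and SLC2A1 (0.979 to 0.986), NID2 like CCND3, JAG1 and CRK (0.973 to 0.988) and LAMB2 like SMARCA4, MCOLN1 and SKIV2L (0.907 to 0.921).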

How the data were processed

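RNA of WI-38 fibroblasts was measured in 12 libraries, 3 flasks in each of 4 conditions, with a directional kit and paired ends. The authors trimmed reads with Trimmomatic, mapped them to hg19 with Rsubread and deposited raw counts for 25702 genes in 48 lane columns. The authors also deposited log2 values (voom log2 cpm) of 9412 genes, used here as an alternative. The counting program, its annotation and its use of strand are not given in the sources used here. Columns were assigned by name.

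The 4 lanes of a library were summed (8674488 to 18286197 counts), and the 9490 genes that reached 10 cpm in 6 or more of the 12 libraries were tested with edgeR 4.0.16 in R 4.3.3 (TMM, quasi-likelihood, 1 mean per condition, Benjamini-Hochberg over all genes, called at an adjusted p under 0.01). The study's limma test, with lanes as samples, was an alternative. The SE was taken as the fitted log2 fold change divided by the square root of F. Log2 cpm had a prior count of 2. RPKM used GENCODE (GRCh37) exons. Shares were tested by exact permutation within day. SEs and SDs between flasks include counting error. Replicate numbers of flasks were checked as pairs. The edgeR fit was tested on simulated data.

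The members and lists were chosen with earlier results of these data known. All members were named, and per list, of the genes called in any of the 4 comparisons, up to 4 with the smallest p in D20+ TGF-β vs D20, plus the other laminin chains and the 3 genes most correlated with each member. A few listed genes are not reported here.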

Additional observations from a re-analysis of the deposited data

Results flagged for a closer look

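For 3 genes the TGF-β response differed between D20 and D1 by the interaction term of the edgeR fit. LAMA1 had a difference of 1.04 on the log2 scale (adjusted p = 4.31e-04), with treated flasks above untreated flasks in the D20 pair of conditions and overlapping ones at D1. LAMA4 had a difference of −1.34 (adjusted p = 2.97e-04) and LAMB1 one of −0.94 (adjusted p = 0.00497). The LAMB1 call was lost in 8 of the fits that left out 1 library (adjusted p = 0.0113 to 0.0163, edgeR). Among all genes 10.4% were called for this difference. With 3 flasks per condition, no group was tested for single flasks that stand apart in one gene.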

How the results depend on the processing

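Of 1071 recomputed member results, 975 kept their side of the threshold, 72 gained and 24 lost a call, and 0 reversed a call. For the 14 partner genes 1239 kept it, 27 gained and 75 lost a call. Members called in D1+ TGF-β vs D1 numbered 2, against 6 with the 48 lanes as samples in limma-voom, 1 with only the 6 libraries compared, and 1 to 2 without single libraries. Over time with TGF-β they numbered 3, against 7 with lanes as samples, 5 with no gene filter, 6 with only the 6 libraries compared, 7 without both outlying flasks (D1 replicate 2 and D20+ TGF-β replicate 3, chosen after seeing the data) and 1 to 6 without single libraries. For the difference of responses they numbered 3, against 9 with lanes as samples, 7 without both flasks and 2 to 5 without single libraries. Lanes of a library are not separate samples, and the cause of the other changes was not tested. In D20+ TGF-β vs D20 and D20 vs D1 they stayed within 1.5 times of 6 and 7. Without single libraries the LAMA4 share moved by −13.9 to −12.2 points and the LAMB2 share by 9.43 to 11.8 points, averaged over both days. Over all genes, lanes as samples called 3895, 5154, 5724, 5893 and 3702 genes against 1271, 2609, 3307, 3457 and 985 (TGF-β at D1 and at D20, time with and without TGF-β, and the difference). TGF-β at D1 gave 818 with the 6 libraries, 724 and 618 without D1+ TGF-β replicate 1 and 2, and 2648 without both flasks. Time with TGF-β gave 4325 with no gene filter, 3776 with the 6 libraries, 4514 without both flasks and 2234 to 3952 without single libraries. The difference gave 1706 without D1 replicate 2, 612 and 543 without D1+ TGF-β replicates 1 and 2, 615 and 549 without D20 replicates 2 and 3, and 2247 without both flasks.

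With the replicate number as a block, 2, 7, 2, 7 and 3 members and 1072, 2379, 3086, 3229 and 831 genes were called. The labels give no batch or other link between flasks of the same number. Same-numbered pairs of deviations had r of −0.224 to 0.325, with 4 of 18 over 0.1. Pairs with different numbers had r of −0.361 to 0.236, with 12 of 36 over 0.1. Of 12 libraries, 5 correlated best with their own number, and the numbers were not taken as pairs. At these depths LAMA3, LAMB4 and LAMC3, with few cpm in some conditions, are the least precise.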
